A study of Homo sapiens with 9 samples.

Results

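The long arm of chromosome 1 (1q) was examined in peak lists of p300 from irradiated PC3 cells, an established line of human prostate carcinoma. Its members were the p300 peaks on chromosome 1 (hg19) with a midpoint at 142 Mb or beyond, without 69 peaks that overlap the window chr1:161412712-161439581. They numbered 1100 of 19861 peaks in all. The untreated group (2 lists) received no drug, and the treated group (3 lists) received 30 µM MnTE-2-PyP, named T2E in the labels, for 24 h. Both groups were exposed to 20 Gy and fixed with 1% formaldehyde 1 h later, so the comparison is between drug and no drug in irradiated cells, without an unirradiated group. The lists were described as biological replicates of this 1 cell line.

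p300 is a histone acetyltransferase that acts as a coactivator at promoters and enhancers, where it acetylates histones and transcription factors. MnTE-2-PyP is a manganese porphyrin that mimics superoxide dismutase, an enzyme that removes superoxide. The long arm of chromosome 1 begins with a large block of constitutive heterochromatin, and the adjoining band 1q21 is rich in segmental duplications. Band 1q42, towards the other end, is known to carry the tandem array of 5S ribosomal RNA genes. Gene-rich bands alternate along the arm with gene-poor ones.

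The limit of the arm fell in a stretch with no peaks. The last peaks before it were at chr1:121485098-121485366 in untreated list 1 and chr1:121485070-121485409 in untreated list 2, at score percentiles of 89.5 and 32.0. The first peaks beyond it were at chr1:142549715-142550094 in untreated list 2 (percentile 87.2) and chr1:142611683-142611934 in treated list 3 (percentile 61.9). No peak of any list lay between the 2 sides. Much of that stretch is unsequenced in hg19, so the lack of peaks is no check of the label, and the members are on the arm by position alone. The nearest members to the omitted window lay 0.531 kb before it, in 1 list, and 1.81 kb after it, in 3 lists. With the omitted window set aside, the whole lists held 2299 and 2030 untreated and 4902, 10044 and 517 treated peaks. No read counts come with the lists, so their depth is unknown, and fewer peaks from less binding or from a lower yield cannot be told apart. The names of the peaks carry a code that untreated list 1 shares with treated list 1, and another that untreated list 2 shares with treated list 3. No label says what these codes mark. Reading them as a shared run is an assumption, and values within the pairs are given as a description. No annotation of hg19 was used, so regions are given by position and not by gene, exon or repeat.

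p300 peaks were denser on 1q than elsewhere in all 5 lists. The arm held 148 and 119 peaks in the untreated lists against 347, 460 and 26 in the treated lists. Peaks per Mb on the arm were 1.39 and 1.12 in the untreated lists against 3.25, 4.31 and 0.244 in the treated lists. Elsewhere they were 0.750 and 0.666, and 1.59, 3.34 and 0.171. The density on the arm was thus 1.85 and 1.67 times that of the remaining genome in the untreated lists against 2.05, 1.29 and 1.42 times in the treated lists. Spans were bounded by the outermost peaks, so the span of 1q leaves out the peak-free stretch before its first peak. Stretches without peaks inside other chromosomes are counted, which raises the ratio by an amount that was not tested. The mean log2 ratio was 0.71 ± 0.27 (SD, n = 5), a 1.63-fold higher density, and was above 0 in 5 of 5 lists. The exact two-sided sign-flip test gave p = 0.0625, the smallest that 5 lists allow, and 0.229 after Benjamini-Hochberg adjustment over 11 within-list tests. When each list was restricted to its 528 top-scoring peaks the mean ratio was 1.18-fold, and untreated list 1 was then below the remaining genome at 0.824 times (exact sign-flip p = 0.25). Treated list 3 holds 528 peaks with the omitted window included, so this setting kept it whole and cut the others. Peaks of the window were dropped after this restriction. Input libraries were not analysed here, so the density is not set against a background.

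Against the short arm of the same chromosome (1p), 1q was not denser in every list. The ratio of 1q to 1p density was 1.43 and 1.06 in the untreated lists against 1.67, 0.749 and 1.06 in the treated lists. It was above 1 in 4 of 5 lists, with treated list 2 below 1 (mean log2 ratio 0.20 ± 0.45, SD, n = 5, exact sign-flip p = 0.3125, adjusted 0.430).

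The number of 1q peaks did not differ between groups beyond the spread of the treated lists. Untreated lists averaged 133.5 ± 20.5 peaks (SD, n = 2) and treated lists 277.7 ± 225.2 (SD, n = 3), a log2 ratio of 1.06 (exact two-sided permutation p = 0.6). The smallest p that 2 lists against 3 can give is 0.2, and no comparison of groups on the arm was below 0.7 after adjustment over 7. Within the pairs that share a name code, the treated list had 2.34 times as many 1q peaks in the first pair and 0.218 times as many in the second, log2 ratios of 1.23 and -2.19. Without treated list 2 the log2 ratio was 0.48.

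The part of each list that fell on 1q overlapped between groups. It was 6.44% (95% Wilson interval 5.51 to 7.52%) and 5.86% (4.92 to 6.97%) in untreated lists 1 and 2. Treated lists 1, 2 and 3 held 7.08% (6.39 to 7.83%), 4.58% (4.19 to 5.01%) and 5.03% (3.45 to 7.27%). Treated list 1 was thus the highest of all and treated list 2 the lowest. Group means were 6.15% ± 0.407 (SD, n = 2) and 5.56% ± 1.33 (SD, n = 3), a difference of -0.587 points (exact permutation p = 0.6). The intervals cover counting error only. Within the name-code pairs the difference was 0.641 points in the first pair and -0.833 in the second. The difference was -0.096 points without treated list 2 and -1.35 without treated list 1.

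Peaks were spread unevenly along the arm, which was cut into 22 bins of 5 Mb, the first of them 3 Mb long. Density in a bin was set against the list's own density over 1q, and the lists were weighted equally. The densest bin was 225 to 230 Mb at 4.47 times the arm's density, followed by 142 to 145 Mb at 3.86, 200 to 205 Mb at 2.99, 150 to 155 Mb at 1.17 and 155 to 160 Mb at 1.17. The value for 142 to 145 Mb includes treated list 3 at 8.21, from 6 peaks. Its other values were 4.08 and 2.69 untreated and 2.87 and 1.47 in treated lists 1 and 2. In untreated list 2 and treated lists 1 and 2, 200 to 205 Mb was denser, at 2.87, 4.12 and 3.29. Mean peaks per Mb over the lists also put 200 to 205 Mb higher, at 7.08 against 5.27. These 5 bins make up 21.4% of the arm and held 61.5% and 54.6% of the untreated against 54.8%, 51.7% and 61.5% of the treated 1q peaks. They were chosen by these same counts, so a share above their part of the length was largely fixed in advance. The bin at 150 to 155 Mb was at 0.799 and 0.821 in treated lists 1 and 3. That at 155 to 160 Mb was at 0.359 in untreated list 2. Of the 1q peaks, 43.2% and 37.8% untreated and 58.5%, 56.3% and 26.9% treated had another peak of their list within 50 kb. Elsewhere it was 42.8% and 37.8%, and 59.7%, 59.3% and 46.0%. The sparsest bins adjoined one another, from 180 to 195 Mb. These 3 bins held 0 and 1 untreated and 1, 7 and 0 treated peaks. For a list with 26 peaks on the arm, as treated list 3, a count of 0 allows a share of up to 11.5%. The longest run without a peak in any list was 4.69 Mb, chr1:181366777-186060933.

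**Figure D1:**
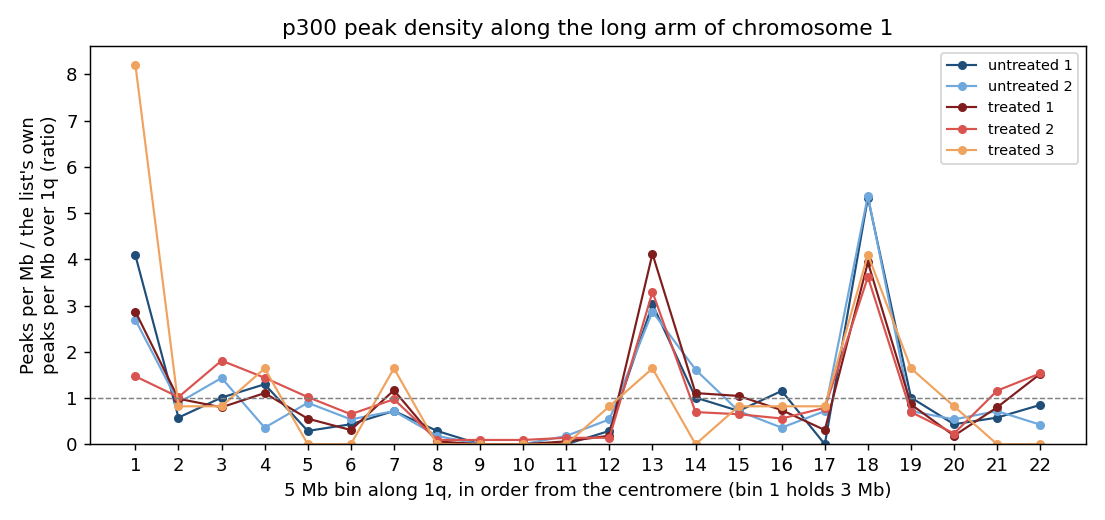
Peak density in each 5 Mb bin of 1q (horizontal axis, bins in order from the centromere) as a ratio to the list's own density over the arm (vertical axis), with 1 line per list. Bins 1, 13 and 18 stand above 1 in every list, and bins 9 to 11 are near 0.

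The distal stretch, 225 to 230 Mb, held a larger part of 1q peaks in both untreated lists than in any treated list. It held 37 of 148 and 30 of 119 untreated peaks, and 64 of 347, 78 of 460 and 5 of 26 treated peaks. These are 25% (95% Wilson interval 18.7 to 32.5%) and 25.2% (18.3 to 33.7%) without the drug and 18.4% (14.7 to 22.9%), 17.0% (13.8 to 20.7%) and 19.2% (8.51 to 37.9%) with it. The groups did not overlap, although the intervals of single lists did. Group means were 25.1% ± 0.149 (SD, n = 2) and 18.2% ± 1.15 (SD, n = 3), a difference of -6.89 points. Permuting the lists exactly (two-sided) gave p = 0.2, which is the smallest possible, and 0.7 after adjustment over 7 comparisons. Within the pairs that share a name code it was -6.56 and -5.98 points. It was opposite among the 528 best-scoring peaks per list, at 7.22 points, where the stretch held 1 and 4 untreated and 5, 2 and 5 treated peaks.

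As a part of the whole list, the distal stretch held 1.61% and 1.48% of the untreated against 1.31%, 0.777% and 0.967% of the treated peaks. It was the only bin of 18 with 10 or more peaks on 1q in which the groups' shares did not overlap, and it was lower in the treated lists. Over the whole genome, 5.15% of 408 such bins were lower in every treated list and 3.68% were higher, so 1 of 18 lower and 0 of 18 higher on the arm was near that background. With a list left out, 4 to 9 bins of the arm did not overlap. The count was 9 of 18 and 5 of 17 on leaving out untreated list 1 or 2, and 4 of 17, 4 of 17 and 5 of 18 on leaving out treated list 1, 2 or 3. Over the whole genome the share of bins in either direction was larger as well, at 31% and 24.5% on leaving out an untreated list and at 21.5%, 30.9% and 24.5% on leaving out a treated list, in the same order.

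**Figure D2:**
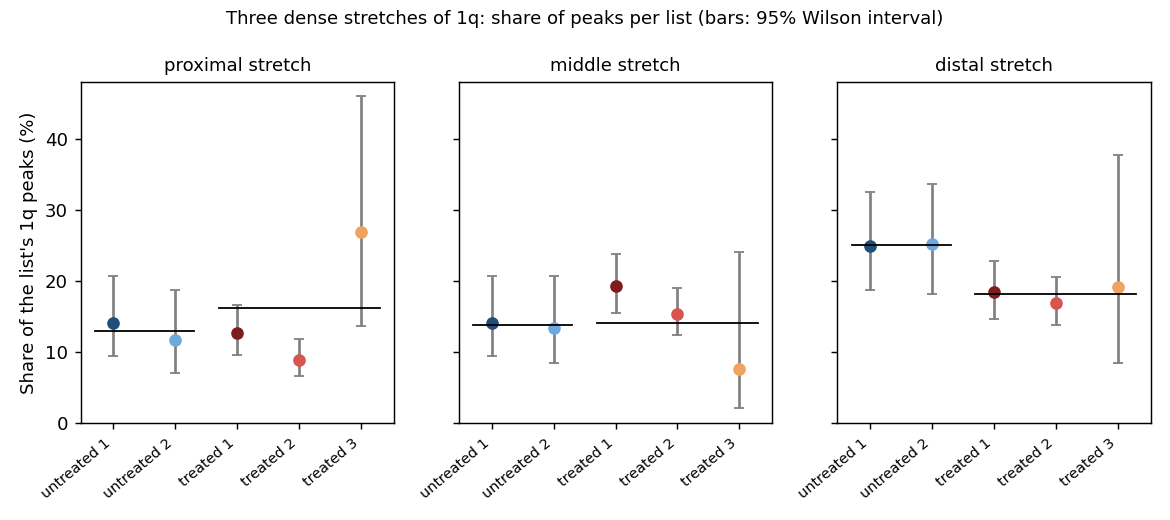
Share of each list's 1q peaks (vertical axis, percent) in the proximal (142 to 150 Mb), middle (200 to 205 Mb) and distal (225 to 230 Mb) stretch, by list; grey bars are 95% Wilson intervals and black lines group means. In the distal panel both untreated lists lie at 25% and 25.2%, above the treated lists at 17.0% to 19.2%.

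Peaks of the distal stretch were spread over much of its length. All 10 steps of 0.5 Mb held a peak, and the fullest 1 Mb, 228 to 229 Mb, held 24 and 10 untreated and 29, 41 and 3 treated peaks. That is 50% of the 214 peaks of the stretch. The median score percentile within the whole list was 40.5 and 41.8 in the untreated lists against 36.6, 47.9 and 31.4 in the treated lists, all under the middle of the list. Against the other 1q peaks the median was lower in 4 of 5 lists, with a mean difference of -11.6 ± 12.4 points (SD, n = 5, exact sign-flip p = 0.125, adjusted 0.275). Untreated list 1 went the other way at 3.52 points.

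The 50 kb of 1q with the most peaks lay in this stretch, at chr1:228744838-228782385. It was chosen after its values were seen. It held 11 and 3 untreated and 15, 6 and 3 treated peaks, which formed 24 separate regions over 37.5 kb, and 11 of those regions were shared by at least a pair of lists. The median distance between neighbouring midpoints was 2.22 kb over 10 gaps in untreated list 1, 2.19 kb over 14 gaps in treated list 1 and 2.15 kb over 5 gaps in treated list 2. Single gaps varied widely, from 0.888 to 6.67 kb in untreated list 1 and from 0.6 to 9.29 kb in treated list 1. Between 2 and 2.5 kb lay 4 of 10, 5 of 14 and 1 of 5 gaps of these lists, so the spacing was not regular throughout. Treated list 3 and untreated list 2, with 2 gaps each, had medians of 12.3 and 18.6 kb. Whether these peaks fall on the tandem 5S ribosomal RNA genes of band 1q42 was not tested, as no annotation of hg19 was used. Without these 50 kb the distal stretch held 19.0% and 23.3% of the untreated against 14.8%, 15.9% and 8.70% of the treated 1q peaks, a difference of -8.02 points (exact permutation p = 0.2).

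**Figure D3:**
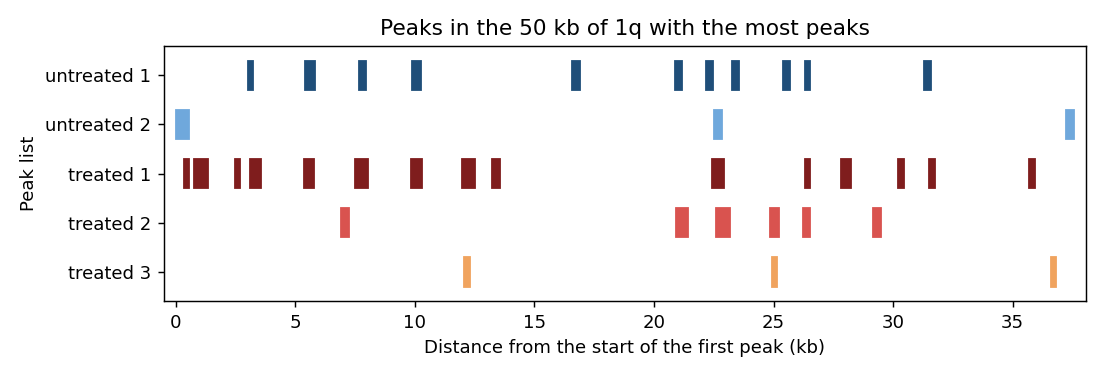
Position of each peak (horizontal axis, kb from the start of the first peak; block width is peak width) in the 50 kb of 1q with the most peaks, with 1 row per list. Untreated list 1 (11 peaks) and treated list 1 (15 peaks) hold most of the peaks, at uneven distances.

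The proximal stretch, 142 to 150 Mb, was dense only in its first part. It held 21 and 14 untreated and 44, 41 and 7 treated peaks, which are 14.2% (95% Wilson interval 9.47 to 20.7%) and 11.8% (7.14 to 18.8%) of the untreated against 12.7% (9.58 to 16.6%), 8.91% (6.64 to 11.9%) and 26.9% (13.7 to 46.1%) of the treated 1q peaks. Treated list 3 was the highest and treated list 2 the lowest, so the groups overlapped. The difference of means was 3.20 points (13.0% ± 1.71, SD, n = 2, against 16.2% ± 9.50, SD, n = 3; exact permutation p = 1.0) and became -2.18 points without treated list 3. By name-code pair it was -1.51 and 15.2 points. The 1 Mb from 142.5 to 143.5 Mb held 66 of the 127 peaks of the stretch, or 14 and 8 untreated and 21, 17 and 6 treated peaks. From 145 to 150 Mb the density was 0.86 times that of the arm. Part of this dense Mb is the only group on 1q of 3 or more recurrent regions (in 3 or more lists) within 50 kb of each other, at chr1:143251044-143284183.

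That group spanned 33.1 kb and contained 6 and 3 untreated and 7, 5 and 2 treated peaks, in 6 regions of which 4 were recurrent. The region chr1:143280157-143280689 was in all 5 lists, with the authors' score at 35.5 and 10.6 in the untreated lists against 54.2, 38.2 and 12.7 in the treated lists. It held the highest 1q score of treated list 1. Its neighbours chr1:143278554-143279513 and chr1:143283063-143284183 were in both untreated lists and in treated lists 1 and 2. Percentiles for the first neighbour were 97.0, 96.9, 99.3 and 99.6 in that order, and for the second 96.4, 93.8, 98.5 and 98.6. Both neighbours thus ranked high in lists of either group.

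Taken as a whole, peaks of the proximal stretch ranked higher and were shared more often than other 1q peaks. The median percentile of the stretch was 61.2 and 59.9 in the untreated lists against 68.2, 61.7 and 61.9 in the treated lists. That of the other 1q peaks was 36.3 and 49.9, and 42.4, 53.2 and 44.8. The stretch was higher in 5 of 5 lists, by 17.2 ± 8.07 points (SD, n = 5, exact sign-flip p = 0.0625, the smallest possible, adjusted 0.229). From 145 to 150 Mb alone the medians were 45.3 and 42.6 untreated and 69.3, 49.6 and 75.4 treated, the last from 1 peak. There untreated list 2 and treated list 2 were below their other 1q peaks, and the remaining lists were above. In the stretch, 66.7% and 57.1% of untreated and 29.5%, 36.6% and 85.7% of treated peaks overlapped a peak of another list. Among the other 1q peaks it was 28.3% and 26.7%, and 18.5%, 13.1% and 68.4%. The difference was 24.1 ± 10.7 points and positive in 5 of 5 lists (SD, n = 5, exact sign-flip p = 0.0625, adjusted 0.229). For the distal stretch the same difference was 0.614 ± 9.90 points (SD, n = 5, exact sign-flip p = 1.0). Shared peaks of the proximal stretch numbered 14 and 8 untreated and 13, 15 and 6 treated. Of these, 11 and 6 untreated and 11, 11 and 5 treated lay at 142 to 145 Mb. In the remainder of that stretch, peaks of treated list 1 were shared less often than its 1q peaks outside the stretch.

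**Figure D4:**
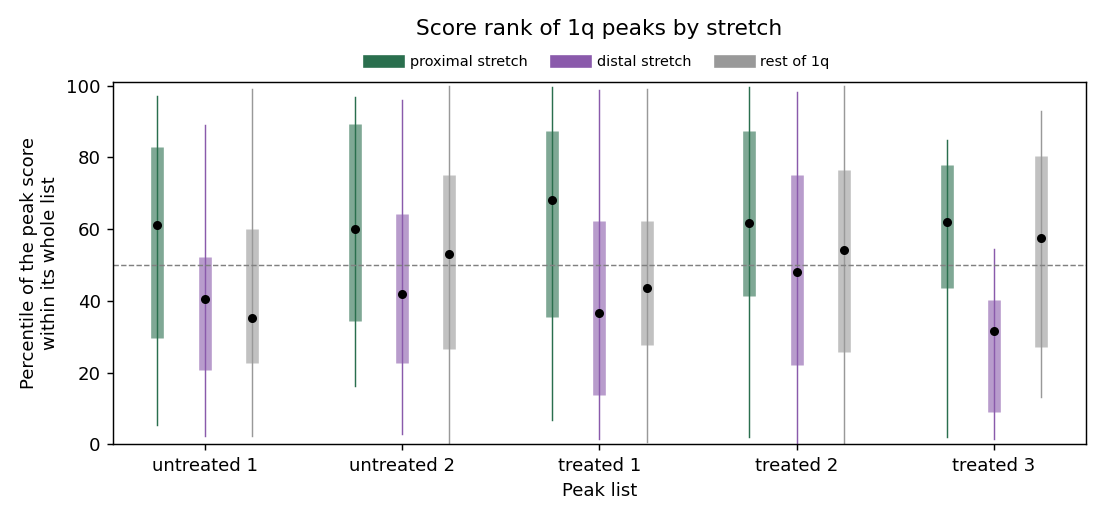
Percentile of the peak score within its whole list (vertical axis) for 1q peaks of the proximal stretch, the distal stretch and the rest of 1q, by list; points are medians, thick bars quartiles and thin lines the range. Medians of the proximal stretch lie at 59.9 to 68.2 and those of the distal stretch at 31.4 to 47.9.

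Over the whole arm, the ranks were near the middle of the lists. The median percentile of 1q peaks was 38.8 and 51.8 in the untreated lists against 44.6, 54.3 and 49.2 in the treated lists, and that of all other peaks 51.1 and 49.9, and 50.3, 47.0 and 50.4. The arm was lower in 3 lists and higher in 2, with a mean difference of -1.99 ± 7.43 points (SD, n = 5, exact sign-flip p = 0.6875). Between groups the medians overlapped, at 45.3 ± 9.14 untreated (SD, n = 2) and 49.4 ± 4.86 treated (SD, n = 3), a difference of 4.05 points (exact permutation p = 0.6). That difference was -2.42 points without untreated list 1, the lowest list, and 10.5 without untreated list 2. Among the 528 best-scoring peaks per list, ranked anew, the medians were 57.6 and 56.4 untreated and 44.5, 34.8 and 49.2 treated. There the groups did not overlap and the treated lists were lower, a difference of -14.2 points (exact permutation p = 0.2, the smallest possible). These medians rest on 16 and 29 untreated and 21, 23 and 26 treated 1q peaks. As treated list 3 was kept whole and the others were cut, the percentiles refer to unlike parts of the lists. Over all peaks, and not in that setting, the difference in median percentile by name-code pair was 5.73 and -2.57 points. Of the 1q peaks, 8 and 13 untreated and 20, 46 and 1 treated peaks were in the top 10% of their list, or 5.41% and 10.9%, and 5.76%, 10.0% and 3.85%.

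The middle stretch, 200 to 205 Mb, was the remaining dense part of the arm. It held 21 and 16 untreated and 67, 71 and 2 treated peaks. These are 14.2% (95% Wilson interval 9.47 to 20.7%) and 13.4% (8.45 to 20.7%) of the untreated against 19.3% (15.5 to 23.8%), 15.4% (12.4 to 19.0%) and 7.69% (2.14 to 24.1%) of the treated 1q peaks. Treated lists lay on both sides of the untreated ones. Many peaks of this stretch were close together. Of the 5 fullest 50 kb of 1q, also chosen after their values were seen, 3 lay there, at chr1:200935377-200980014 with 26 peaks over all lists, chr1:201009076-201056617 with 21 and chr1:201182291-201231552 with 15. The median percentile in the stretch was 27.6 and 39.9 in the untreated lists against 40.9, 55.6 and 27.8 in the treated lists.

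The recurrent region with the highest mean percentile of the arm, 98.2, stood alone beside the sparse part. At chr1:195466603-195467120, in all 5 lists, the scores were 67.3 and 40.6 untreated and 45.1, 103.6 and 21.8 treated. It was the top peak of the whole treated list 2 and ranked 3 in untreated list 2, 24 in untreated list 1 and 37 in treated list 3. No peak of any list lay within 2255 kb before it or 1951 kb after it. Another region, chr1:178369963-178370469, chosen after its values were seen, was in every list except treated list 3, at percentiles of 97.6 and 97.2 untreated and 97.1 and 99.6 treated. It followed 4563 kb without a peak.

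Sharing between lists was then compared on the arm and elsewhere. Untreated lists 1 and 2 overlapped least, with 14 of the 119 peaks of the shorter list (11.8%, 95% Wilson interval 7.14 to 18.8%). For treated lists 1 and 2 the overlap was 13.0% (9.84 to 16.9%), and treated list 3 overlapped these at 46.2% (28.8 to 64.5%) and 65.4% (46.2 to 80.6%) of its 26 peaks. The between-group pairs ranged from 20.2% to 26.9%. Pairs of 1 group averaged 34.1% and pairs across groups 23.0%, which is 11.1 points apart (one-sided exact permutation p = 0.2, smallest possible 0.1). The direction did not hold in 2 other settings. Without treated list 3, the shortest, the difference was -9.58 points, and among the 528 best-scoring peaks per list, with treated list 3 kept, it was -5.78 points. Without treated list 2 it was 5.13 points, and it was 18.8 and 18.3 points without untreated lists 1 and 2.

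All 10 pairs had a lower overlap on 1q than in the remaining genome, where the pairs of 1 group averaged 44.0% and the others 34.5%. The pairs share lists and are not independent. Peaks of the omitted window were left out of the arm, while no such window was left out elsewhere. How far this bears on the lower sharing on the arm was not tested. Per list, the percentage of peaks that overlapped any other list was 33.8% and 30.3% in the untreated lists against 19.9%, 15.2% and 73.1% in the treated lists on 1q. In the remaining genome it was 43.2% and 33.1%, and 28.1%, 13.9% and 84.9%. The arm was lower in 4 of 5 lists, with treated list 2 the exception, with a mean difference of -6.19 ± 5.33 points (SD, n = 5, exact sign-flip p = 0.125, adjusted 0.275).

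**Figure D5:**
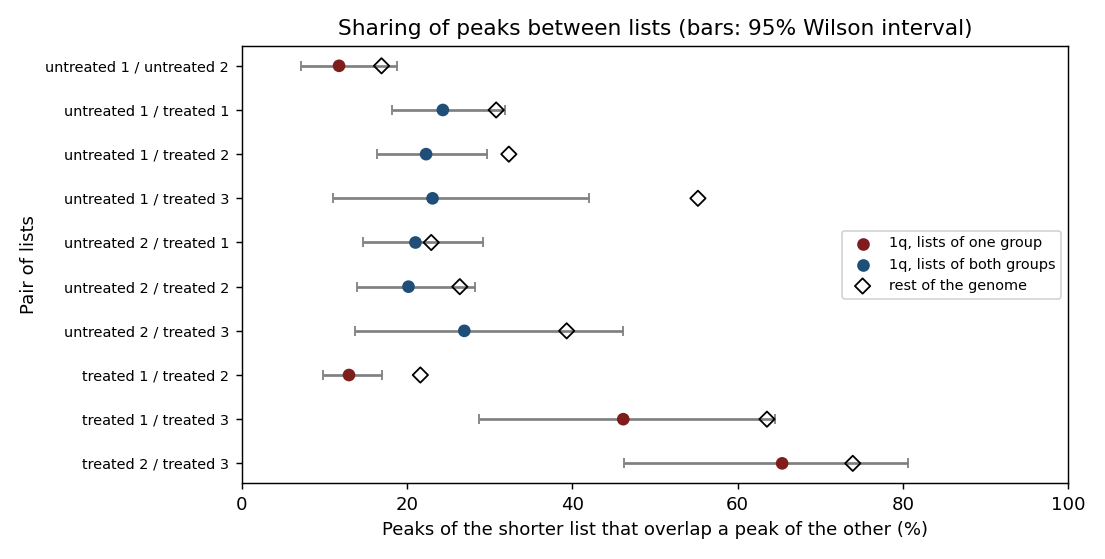
Percent of the peaks of the shorter list that overlap a peak of the other (horizontal axis) for each pair of lists (vertical axis), on 1q (filled points with 95% Wilson intervals) and in the remaining genome (open diamonds). Every filled point lies left of its diamond, and the untreated pair is lowest at 11.8%.

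Overlapping peaks (by at least 1 bp) of different lists were joined into regions. The arm had 951 regions, of which 856 were in 1 list, 66 in 2 lists, 15 in 3, 9 in 4 and 5 in all 5. The 95 regions in 2 or more lists are 9.99%, against 10.4% over the whole genome, so the arm was near that background. The 5 regions in all 5 lists are 0.526%, against 0.869% over the whole genome. Without treated list 3 there were 12, or 1.27%, against 1.58% over the whole genome. On 1p, 9.17% of regions were in 2 or more lists and 0.390% in all 5, so neither share was higher than on 1q. Of the 9 regions of 1q in 4 lists, 7 lacked treated list 3. Apart from those described, regions in all 5 lists were chr1:227700720-227701218 in the distal stretch (scores 20.9 and 12.8 untreated and 19.4, 14.8 and 6.30 treated), chr1:156186030-156186729 (15.2 and 7.63, and 13.2, 5.83 and 11.8) and chr1:145277159-145277660 (7.56 and 5.68, and 15.2, 5.09 and 11.2). Whether the scores of different lists share a scale is not known, so these values are not compared between lists. Regions in 3, 4 and 5 lists had median mean percentiles of 79.8, 83.4 and 82.9, against 44.3 for regions in 1 list and 42.6 for those in 2.

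Few regions of the arm were in every list of a group and in no list of the other. In both untreated lists and no treated list there were 2 regions, or 0.210%, against 0.186% over the whole genome. These were chr1:142949541-142950158 in the proximal stretch, at percentiles of 61.2 and 58.2 in untreated lists 1 and 2, and chr1:201176951-201177557 in the middle stretch, at 23.2 and 49.9. Both were thus of middling or low rank. There were 85 (9.95%, against 9.06% over the whole genome) without untreated list 1 and 100 (11.5%, against 8.84%) without untreated list 2, since 1 untreated list then defines them.

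In all 3 treated lists and no untreated list there were 4 regions, or 0.421%, against 0.24% over the whole genome. They were chr1:142897402-142897810 in the proximal stretch (percentiles 88.0, 96.3 and 84.8 in treated lists 1, 2 and 3), chr1:230067890-230068339 just beyond the distal stretch (85.2, 88.4 and 81.4), chr1:172686159-172686531 (96.8, 60.9 and 81.8) and chr1:236260212-236260741 (14.4, 88.4 and 62.6). The first of these lay 51.7 kb before the first region that was in the untreated lists alone. There were 10 such regions without treated list 1 (1.48%, against 0.677% over the whole genome) and 19 without treated list 3 (2.01%, against 2.49%). In 2 or more treated lists and no untreated list there were 26 regions, or 2.73%, against 2.92% over the whole genome, of which 15 were in treated lists 1 and 2 alone. That count was 10 without treated list 1 (1.48%, against 0.677%, as above) and 5 without treated list 2 (0.887%, against 0.827% over the whole genome). With 2 lists against 3, no single region was tested.

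Peak widths on 1q differed among the lists of each group. The median width was 236.5 and 368.0 bp in the untreated lists against 227.0, 332.0 and 242.0 bp in the treated lists, so the groups overlapped. The narrowest 1q peak equalled the narrowest peak of its whole list, at 199 and 332 bp, and 193, 291 and 200 bp, and the medians were 1.11 to 1.21 times these. Group means of the medians were 302.2 ± 93.0 bp (SD, n = 2) and 267.0 ± 56.8 bp (SD, n = 3), a difference of -35.2 bp (exact permutation p = 0.6). Leaving out untreated list 2, the widest, gave 30.5 bp, and leaving out untreated list 1 gave -101.0 bp. Leaving out treated list 1 or 2 gave -15.2 and -67.8 bp. By name-code pair it was -9.5 and -126.0 bp. Against the remaining genome the median on 1q differed by 10.0 bp or less in every list (mean -0.7 ± 7.05 bp, SD, n = 5, exact sign-flip p = 0.9375). Covered length on the arm was 37.9 and 50.4 kb in the untreated lists against 89.1, 172.0 and 6.58 kb in the treated lists, at mean widths of 256.1 and 423.5 bp and 256.7, 373.9 and 253.0 bp.

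Peaks shared between lists were wider than those in 1 list. On 1q the shared peaks had median widths of 248.0 and 436.0 bp in the untreated lists against 250.0, 397.0 and 252.0 bp in the treated lists, against 218.5 and 353.0 bp and 219.0, 321.5 and 204.0 bp for peaks in no other list. A wider peak can overlap another more easily, and the part of this in the sharing was not tested. Shared peaks also ranked higher, at median percentiles of 46.5 and 75.9 untreated and 65.4, 76.0 and 62.6 treated, against 35.2 and 39.0, and 42.1, 50.9 and 44.8. In the remaining genome shared peaks were wider too, at 258.0 and 428.5 bp untreated and 262.0, 404.0 and 245.0 bp treated. Peaks in no other list had 220.0 and 356.0 bp, and 223.0, 313.0 and 229.0 bp. The median percentile of shared peaks there was higher by 26.9 and 24.5 points untreated and 33.3, 36.2 and 26.9 treated. On 1q these differences were 11.3 and 36.9, and 23.4, 25.1 and 17.8. Width and score were only loosely related among 1q peaks, with Spearman's rho of 0.062 and 0.061 in the untreated lists against -0.0037, 0.225 and 0.316 in the treated lists, across peaks of 1 list that share its depth.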

How the data were processed

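p300 chromatin immunoprecipitation libraries of PC3 cells were used; the 4 input libraries were not analysed here. The authors deposited 1 peak list per p300 library on hg19, with MACS2 named, per the submitters' processing notes. Not given in the sources used here were the aligner, the MACS2 version, its threshold and the paired input. In each list the deposited columns include a score per peak whose scale is not named (lowest 3.04, 2.02, 3.04, 2.02 and 2.16), so it served only to rank or filter peaks. Starts are counted from 1. Percentiles were ranked over the whole list, and the span of the arm and of each other chromosome was bounded by the outermost peaks over all lists.

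Groups were compared with exact permutation tests over the 10 splits of the lists, and 1q with other peaks with exact sign-flip tests over lists. Of 11 within-list tests, 9 were added after the values were seen. Named regions were those in all 5 lists, in both untreated lists alone or in all 3 treated lists alone, the top and widest peaks, recurrent groups and the densest and sparsest bins. The members, lists and rules were chosen with earlier results of these data known. Region counting was tested on simulated data with 600 planted regions, of which 100% were found. Some were planted near a neighbour and others far from it, with the peaks of a region nearly centred on each other. Regions that lie closer together than these, or that are joined through a chain of peaks, were therefore not tested. Alternatives are given in the closing section. Python 3.11.15, numpy 2.4.6, pandas 2.3.3, scipy 1.17.1 and matplotlib 3.10.9 were used.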

Additional observations from a re-analysis of the deposited data

How the results depend on the processing

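Among 165 recomputed values, 12 had the opposite sign, 24 were counts more than 1.5-fold away and 129 were neither. No p reached 0.05 in any setting, and the designs could not reach it. Limited to 528 top-scoring peaks a list, the difference was 0.190 points for the share of the list on 1q, 7.22 for the distal share, -14.2 for the median percentile and -5.78 for the overlap; regions in all 5 lists, untreated alone, all treated alone and 2 or more treated alone were 3, 0, 0 and 5. With scores at or above the pooled median of 5.90, which assumes a common scale that was not shown, these counts were 3, 0, 2 and 10, and 2 bins did not overlap. Both settings hold fewer peaks in total, and whole-genome shares were not computed for them, so these counts are not a result about the arm. Regions in all 5 lists were 8 with the omitted window kept and 3 without the proximal stretch, where 1 was in the untreated lists alone. Whole-genome shares were not computed for these settings either. Group medians gave -0.297 points for the proximal share. Pairs of lists with a name code in common gave a log2 ratio of peak numbers of -0.48. For the replicate block (numbers 1 and 2), the values were 1.59 (log2) for peak numbers, -0.321, -2.18 and -7.40 points for the list, proximal and distal shares, -22.8 bp for width and 4.13 points for rank. Per-bin deviations of same-numbered lists correlated at 0.340 and 0.605 over 408 bins. Deviations of the 2 untreated lists mirror each other, so pairs of unlike numbers 1 and 2 had the same values with a minus sign. With 2 numbers and this constraint, the correlations do not establish pairing. Leaving out 1 list gave -2.42 to 10.5 points for rank, -4.31 to 0.567 for rank against the remaining genome, -101.0 to 30.5 bp for width, -9.58 to 18.8 points for overlap, -2.18 to 6.82 for the proximal share, 5 to 12, 2 to 100, 5 to 19 and 5 to 34 for the region counts above, and 4 to 9 bins. No direction turned, and all counts stayed within 1.5-fold, when overlap had to cover 50% of the shorter peak, when peaks within 500 bp were joined or when bins were shifted by 2.5 Mb. The same held without the densest 50 kb, a setting added after seeing the data. Read depth is unknown, so what it limits was not assessed.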

Other observations

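The widest regions of the arm were neighbours. The region chr1:152186147-152187612 was 1466 bp wide and held 1 peak of untreated list 2, 1 of treated list 1 and 2 of treated list 2. The region chr1:152188050-152189442, which follows after 0.437 kb, was 1393 bp wide and held peaks of both untreated lists and treated lists 1 and 2. They contained the widest 1q peaks of untreated list 2 (1135 bp, percentile 80.3) and of treated list 2 (1125 bp, percentile 91.1). The widest 1q peaks of untreated list 1 (584 bp), treated list 1 (756 bp) and treated list 3 (567 bp) lay elsewhere, at percentiles of 12.7, 9.06 and 77.5.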
